A study of Mus musculus with 2 samples.

Results

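The 29 genes described here encode subunits of glutamate receptors and 2 families of adhesion molecules that organize synapses, the neurexins and the neuroligins. They were chosen by gene family, with UMI counts of these libraries already seen, and were found by their symbols among the 32285 genes that both count matrices list. Their level was followed across classes of nuclei, across stromal zones and across 2 ages of the mouse kidney. The E18.5 library was made from embryonic kidneys labeled Mycf/f;Mycnf/f, that is, with floxed Myc and Mycn alleles and no Cre recombinase in the label, on a mixed background. The P3 library was made from wild type C57BL/6J kidneys on postnatal day 3. In both, kidneys of several mice of both sexes were pooled and snap-frozen before nuclei were released, and there was 1 library per age. The effects of age, of genotype, of strain background and of the Cell Ranger release that made each matrix therefore cannot be told apart.

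Glutamate is the main excitatory transmitter of the brain. AMPA receptors (Gria genes), kainate receptors (Grik genes) and NMDA receptors (Grin genes) are cation channels built from several subunits, the delta receptor Grid1 binds extracellular bridging proteins rather than glutamate, and the metabotropic receptors (Grm genes) couple to G proteins. Neurexins sit on the presynaptic side and bind neuroligins, LRRTM proteins and latrophilins on the partner cell. Several of these genes are also transcribed outside the nervous system, among others in kidney, where NMDA receptors are known from glomeruli and tubules and neuroligins from blood vessels.

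After quality limits, 21270 nuclei with 77321253 UMIs remained at E18.5 and 11765 nuclei with 70055219 UMIs at P3, with medians of 3132.5 and 4534 UMIs per nucleus. A doublet caller marked 17.7% of nuclei in each library, and 69 barcode sequences occurred in both libraries. The nuclei fell into 26 and 30 clusters, which were made without the 29 genes and without 70 partner genes, so that none of their levels entered the clustering. Clusters were named from raised marker genes. Podocyte, proximal tubule, loop of Henle, distal tubule, ureteric, endothelial, leukocyte and interstitial markers were all raised in clusters of their own at both ages, which matches the labeled tissue. A nephron progenitor-like class was named only at E18.5. At P3 a cluster of 998 nuclei led by Eya1, Bmper and Uncx was left unnamed because its raised markers (Lhx1, Wnt4, Pax8, Jag1 and Ccnd1) scored highest for the early nephron while its leading genes held more genes of another class. Several named classes held clusters made mostly of called doublets, so levels without called doublets are given for some genes. At P3 the proximal tubule-like class had 37.7% called doublets. Of its 2074 nuclei, 794 lay in a cluster with 92.6% called doublets, and the P3 levels of this class below include them. Levels are given in CPM, the UMIs of a gene per 1000000 UMIs of the class, summed over its nuclei. Intervals are 95% intervals from the counts alone (exact Poisson for a level, exact conditional binomial for a ratio). They cover counting error only, and no test between groups was possible with 1 library per age. A smaller number of transcripts per nucleus and a smaller number of expressing nuclei cannot be told apart in such sums.

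Of the 29 genes, 23 had at least 100 UMIs in each library. The other 6 were Grin1 with 83 UMIs at each age, Grin3b with 51 and 57, Grm5 with 28 and 43, Grin2c with 3 and 7, Grm2 with 2 and 0, and Grm6 with 0 and 1. Nrxn3 was the most counted, with 69429 UMIs at E18.5 and 73485 at P3, and stood at the 99.8th percentile of all detected genes in both libraries. Gria4 followed with 36313 and 45478 UMIs, and Grm7 with 21654 and 30046. These are long genes, and nuclear UMIs rise with gene length. Per 100 kb of gene span the order differed, with Nlgn2 highest at 184 CPM at E18.5 and 186 at P3, then Gria4 at 124 and 172, and Grik5 at 75.9 and 74.2. On that scale Nrxn3 reached 55.7 and 65.1, and Grm8 0.780 and 0.941.

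The question of the first comparison was in which class of nuclei each gene had its highest level. Interstitium-like nuclei led for 8 of the 23 genes at E18.5 (Gria1, Gria4, Grin2d, Grm3, Grm7, Nrxn3, Nlgn2 and Nlgn3), beside 6.71% of all 16386 genes with at least 100 UMIs. They led for 8 of 23 at P3 as well (Gria1, Gria4, Grik1, Grin2d, Grm7, Nrxn3, Nlgn2 and Nlgn3), beside 7.68% of 15990 genes. The P3 count was 4 with 20 nearest neighbors, beside 4.68% of all genes, and 5 with all deposited barcodes, beside 5.17%, 2 settings in which most papillary stroma was given another name. The remaining genes were led by 8 other classes at E18.5 and 7 at P3. Unnamed clusters were not ranked. They held 2710, 2198 and 381 nuclei at E18.5, and the largest held 1568, 998 and 782 at P3. Those of 2710 and 1568 nuclei had raised hemoglobin genes and medians of 1249 and 970 UMIs. Called doublets made up 82.8% of the 2198, 84.0% of the 381 and 85.7% of the 782 nuclei. Summed over all 29 genes, interstitium-like nuclei held 5046 CPM at E18.5 and 6474 at P3, against 331 and 787 in leukocyte-like nuclei and 430 and 573 in urothelium-like nuclei. The cluster of 18 nuclei with raised Th, Stmn2, Elavl4 and Snap25 at E18.5 was too small to be ranked. It held 4792 CPM, and there Gria1, Gria2, Gria4, Grin1 and Nrxn2, among others, exceeded every ranked class.

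**Figure D1:**
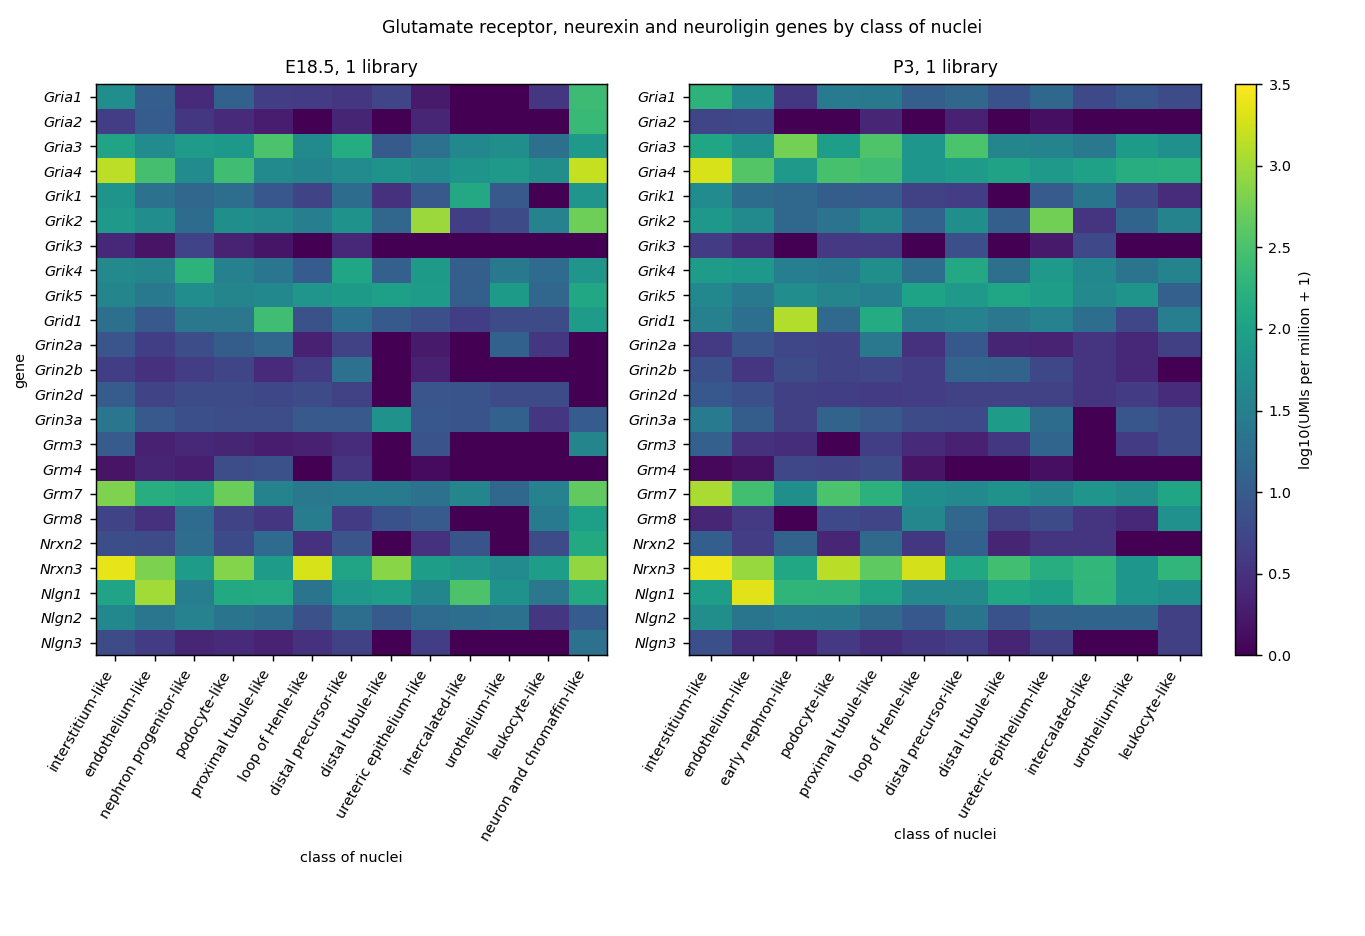
Heat map of the 23 genes with at least 100 UMIs in each library (rows) across named classes of nuclei (columns) at E18.5 (left) and P3 (right), colored by log10 of CPM plus 1. Among classes of at least 50 nuclei, Gria4, Grm7 and Nrxn3 are brightest in interstitium-like nuclei and Grik2 in ureteric epithelium-like nuclei. Nlgn1 is brightest there in endothelium-like nuclei and Grid1 in proximal tubule-like or early nephron-like nuclei. In the unranked column of 18 neuron and chromaffin-like nuclei at E18.5, Gria4 is brighter still (1563 CPM, against 1401 in interstitium-like nuclei).

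Sequence before RefSeq transcription starts is shown for leading genes of the main patterns, so that the CpG content around these starts can be compared. The patterns are the stroma (Gria4 and Nrxn3), the ureteric epithelium (Grik2) and the endothelium (Nlgn1). RefSeq windows (build GRCm38.p6) from 250 bases before to 50 after a start matched 18 of the 29 genes, with 24 windows. The 100 bases directly before the start are printed 5′ to 3′ on the gene's strand, with CG dinucleotides in capitals. They lie at chr9:4796235-4796334 (minus strand) for Gria4, chr10:49788755-49788854 (minus) for Grik2, chr3:26331910-26332009 (minus) for Nlgn1, and chr12:88794404-88794503, chr12:88953290-88953389 and chr12:89812383-89812482 (all plus) for Nrxn3.
Gria4: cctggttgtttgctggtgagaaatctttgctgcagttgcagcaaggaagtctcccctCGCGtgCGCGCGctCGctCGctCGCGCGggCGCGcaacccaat
Grik2: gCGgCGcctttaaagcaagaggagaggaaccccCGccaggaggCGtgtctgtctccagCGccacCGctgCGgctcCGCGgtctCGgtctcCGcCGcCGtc
Nlgn1: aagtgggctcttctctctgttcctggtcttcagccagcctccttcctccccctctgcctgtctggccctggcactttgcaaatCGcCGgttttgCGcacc
Nrxn3, upstream window: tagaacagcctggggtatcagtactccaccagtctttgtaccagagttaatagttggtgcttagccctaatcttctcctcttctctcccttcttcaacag
Nrxn3, middle window: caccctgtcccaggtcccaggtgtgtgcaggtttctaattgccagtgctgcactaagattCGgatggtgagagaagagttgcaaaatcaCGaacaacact
Nrxn3, downstream window: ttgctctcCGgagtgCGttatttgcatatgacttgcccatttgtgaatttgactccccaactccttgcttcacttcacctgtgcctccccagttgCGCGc
Over the whole 300-base windows, CG occurred 26 times at Grik2, 17 times at Gria4 and 14 times at the Nlgn1 window shown, against a median of 7 over all 32851 windows. A second Nlgn1 window, further into the gene and not shown, held 6. The 3 Nrxn3 windows held 2, 6 and 16. All 3 lie inside the annotated Nrxn3 span, which begins at 88722876 on the plus strand. Sequence before that start is not shown. Neurexin genes are known for separate promoters of long and short forms, and 3′ counting does not tell the forms apart. Which form each window belongs to was not tested.

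Among the AMPA receptor genes, Gria4 (ENSMUSG00000025892, chromosome 9, 4417896 to 4796234) marked the stroma. Its level in interstitium-like nuclei was 1401 CPM at E18.5 and 1959 at P3, and 63.9% and 62.7% of its UMIs lay there, in 24.2% and 26.4% of the nuclei. The next class was endothelium-like nuclei with 289 and 360, a ratio of 4.85 (4.61 to 5.11) and 5.45 (5.18 to 5.72). The endothelium-like class held clusters with many called doublets, and without called doublets its Gria4 level was 143 and 128 and the ratio 9.88 and 16.0. With each nucleus thinned to 1000 UMIs, a Gria4 UMI was found in 59.0% and 68.4% of interstitium-like nuclei (79.4% and 88.9% unthinned, median depths 2972 and 4079). Ureteric epithelium-like nuclei, at median depths of 3138.5 and 5047, gave 4.72% and 8.27% thinned and 13.8% and 29.2% unthinned. At E18.5 the thinned share was likewise between 3.79% in loop of Henle-like and 5.66% in distal tubule-like nuclei. The ratio of Gria4 to Nrxn3 at E18.5 was 0.527 in ureteric epithelium-like, 0.547 in proximal tubule-like and 0.550 in nephron progenitor-like nuclei, beside 0.523 over all nuclei. Other classes with low levels departed from it, with 0.435 in distal precursor-like, 0.947 in intercalated-like and 1.59 in urothelium-like nuclei. The part of free RNA in these low levels was not tested.

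Gria1 (chromosome 11, 57011387 to 57330244) was also a stromal gene. In the interstitium-like class it stood at 51.1 CPM at E18.5 and at 181 at P3, 4.62 times (3.60 to 6.00) the podocyte-like and 3.79 times (3.31 to 4.36) the endothelium-like level. Without called doublets these ratios were 21.1 and 12.4, and the next class at E18.5 was then the endothelium-like class at 6.26. Gria3, on the X chromosome, had a tubular pattern instead. It was highest in proximal tubule-like nuclei at E18.5 (322 CPM) and in early nephron-like nuclei at P3 (590). Proximal tubule-like nuclei followed at P3 (345), a class with 37.7% called doublets. In distal precursor-like nuclei Gria3 was 148 at E18.5 and 323 at P3. Gria2, whose edited subunit makes AMPA channels impermeable to calcium, was low, with 247 UMIs in the whole E18.5 library and 178 at P3. Among the ranked classes it was highest in endothelium-like nuclei, at 9.33 CPM at E18.5 and 4.65 at P3, and the 18 neuron-like nuclei had 237 (25 UMIs). Among the stromal zones of P3 it was 36.4 (9 UMIs) in the nephrogenic and 25.9 (38 UMIs) in the papillary zone.

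Among the kainate receptor genes, Grik2 (ENSMUSG00000056073, chromosome 10, 49094833 to 49788766) was a ureteric gene. Its level in ureteric epithelium-like nuclei was 937 CPM at E18.5 and 575 at P3, which is 12.2 times (11.4 to 13.0) and 7.89 times (7.29 to 8.55) the next class, the interstitium. Within the ureteric class Grik2 was uneven. The cluster of 606 nuclei with raised Ret and Wnt11 (tip genes) had 1648 CPM, and the cluster of 516 nuclei with raised Aqp2, Aqp3 and Hsd11b2 (collecting duct genes) had 109. At P3 the cluster with raised Ret had 921 in 280 nuclei, and the other ureteric cluster, led by Slc14a2, had 84.5 in 151 nuclei. In nuclei thinned to 1000 UMIs a Grik2 UMI was found in 41.6% and 32.0% of the ureteric class (57.4% and 54.5% unthinned), against 0.656% and 1.17% of urothelium-like nuclei (2.20% and 8.45% unthinned, median depths 3536 and 6261).

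Grik4, a high-affinity kainate subunit, was highest in nephron progenitor-like nuclei at E18.5, at 183 CPM, and next in distal precursor-like nuclei at 115. At P3 the unnamed cluster led by Eya1 had 372, above the 129 of distal precursor-like nuclei, the highest of the named classes. Grik1 was highest in intercalated-like nuclei at E18.5 (130 CPM, from 37 UMIs) and in interstitium-like nuclei at P3 (47.9), and the first of these orders was reversed without called doublets (ratio 0.918). Grik5, the other high-affinity subunit, was spread widely. Its highest classes differed by less than the counting interval, with 93.8 in distal tubule-like and 84.9 in ureteric epithelium-like nuclei at E18.5, and 112 in distal tubule-like and 106 in loop of Henle-like nuclei at P3. Grik3 had only 119 and 278 UMIs, and the P3 cluster led by Eya1 had the highest Grik3 level, 16.9 CPM.

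Grid1 (ENSMUSG00000041078, chromosome 14, 34820108 to 35583379) marked young tubule nuclei. At E18.5 proximal tubule-like nuclei had 265 CPM, and the ratio to podocyte-like nuclei, the next class, was 11.2 (9.48 to 13.4). Almost all of this came from 1 cluster of 1836 nuclei, led by Grid1, Stxbp5l and Cdh6, with 334 CPM, whereas the 485 proximal tubule-like nuclei led by the transporter genes Slc22a27 and Slc7a12 had 47.5. At P3 the early nephron-like class, 210 nuclei with raised Lhx1, Jag1 and Dll1 that were also led by Grid1 and Stxbp5l, reached 1255 CPM, 8.76 times (8.21 to 9.34) the proximal tubule-like level of 143. When called doublets were left out, 1334 nuclei with Grid1 at 414 were named early nephron-like at E18.5, and proximal tubule-like nuclei had 66.0. With 20 nearest neighbors the order of the P3 classes was reversed (ratio 0.235). Class names therefore differ between ages for nuclei with the same leading genes, and the value of 265 and the value of 1255 are not a comparison of the same population.

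NMDA receptor genes other than Grin3a were low. Grin1, the subunit that every NMDA receptor needs, reached 1.15 CPM at E18.5 and 2.89 at P3 among interstitium-like nuclei, and 5.59 and 10.7 in urothelium-like nuclei from 2 and 7 UMIs, beside 75.8 in the neuron-like cluster. Grin2a, a glutamate-binding subunit, was highest in proximal tubule-like nuclei at both ages, at 13.3 and 23.9 CPM, but at E18.5 urothelium-like nuclei were close at 11.2 (ratio 1.19, 0.454 to 4.45) and the lead held in 4 of 6 settings. Grin2b was highest in distal precursor-like nuclei at both ages, at 19.5 and 12.8, and at P3 distal tubule-like nuclei were close at 11.9 (ratio 1.08, 0.480 to 2.64). Grin2d was highest in interstitium-like nuclei at 9.60 and 8.11, with the next class inside the counting interval. Grin3a, a glycine-binding subunit that lowers calcium entry, was higher. It was 61.1 CPM in distal tubule-like nuclei at E18.5 and 85.7 at P3, which is 2.66 times (1.75 to 3.91) and 3.33 times (2.52 to 4.35) the interstitium-like level. With Leiden clusters, where 581 P3 nuclei were called distal tubule-like, the P3 ratio was 0.931, and interstitium-like nuclei led in 1 of 6 settings at each age.

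Among the metabotropic receptors, Grm7 (ENSMUSG00000056755, chromosome 6, 110645581 to 111567230) was the only one with more than 1000 UMIs. Its level among interstitium-like nuclei was 667 CPM at E18.5 and 1143 at P3. Podocyte-like nuclei came next with 518 and 318. At E18.5 the podocyte-like cluster of 694 nuclei with 4.18% called doublets had 548, well above its Nrxn3 level of 84.7, whereas over the whole library Grm7 was 0.312 of Nrxn3. At P3 the largest podocyte-like cluster, 129 nuclei with 3.88% called doublets, had 140, and 49 nuclei with 95.9% called doublets had 663. Without called doublets the P3 podocyte-like level was 160. Grm7 also exceeded Nrxn3 in nephron progenitor-like nuclei, with 129 and a ratio of 1.498, and in the P3 cluster led by Eya1, with 363 and a ratio of 1.84. Grm3 was low, at 9.18 and 10.7 in interstitium-like and 6.98 and 12.7 in ureteric epithelium-like nuclei. Grm8 was highest in loop of Henle-like nuclei at E18.5 (28.7) and in leukocyte-like nuclei at P3 (58.1), each within the counting interval of the other class. Grm4 did not exceed 6.50 CPM in any ranked class.

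Nrxn3 (ENSMUSG00000066392, chromosome 12, 88722876 to 90334935) was highest in 2 of the ranked classes. Interstitium-like nuclei held 2349 CPM at E18.5 and 2575 at P3, and loop of Henle-like nuclei 1947 and 1883, where Gria4 was 37.2 and 67.5. The order of these classes depended on the processing, since the mean over nuclei at E18.5 gave a ratio of 0.945 and all deposited barcodes at P3 gave 0.908. In the latter setting, and with 20 nearest neighbors, 186 and 206 of the 216 papillary-like stromal nuclei of P3 were named nephron progenitor-like, and that class then led for Nrxn3. Distal tubule-like nuclei had 748 CPM of Nrxn3 at E18.5 and 276 at P3. Podocyte-like nuclei had 715 and 1359, in classes with 41.5% and 25.4% called doublets. Endothelium-like nuclei had 634 and 908, with 20.9% and 20.4% called doublets. Nrxn2 stayed between 0 and 16.6 in the ranked classes and reached 133 in the neuron-like cluster.

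Nlgn1 (ENSMUSG00000063887, chromosome 3, 25426215 to 26332460), a postsynaptic neurexin partner, was the endothelial gene of the group. Endothelium-like nuclei had 1019 CPM at E18.5 and 2169 at P3, and held 40.9% and 54.5% of its UMIs in 6.85% and 8.42% of the nuclei. Intercalated-like nuclei were next with 331 and 203. Among the P3 endothelium-like clusters, the largest (741 nuclei) had 2782, and a cluster of 55 nuclei led by Sox17 and with Vegfc and Bmx among its leading genes, which are arterial genes, had 57.4. Nlgn2, a neuroligin of inhibitory synapses, was broad, with 41.6 and 52.0 in interstitium-like nuclei. Nlgn3 did not exceed 6.25 CPM in a ranked class.

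**Figure D2:**
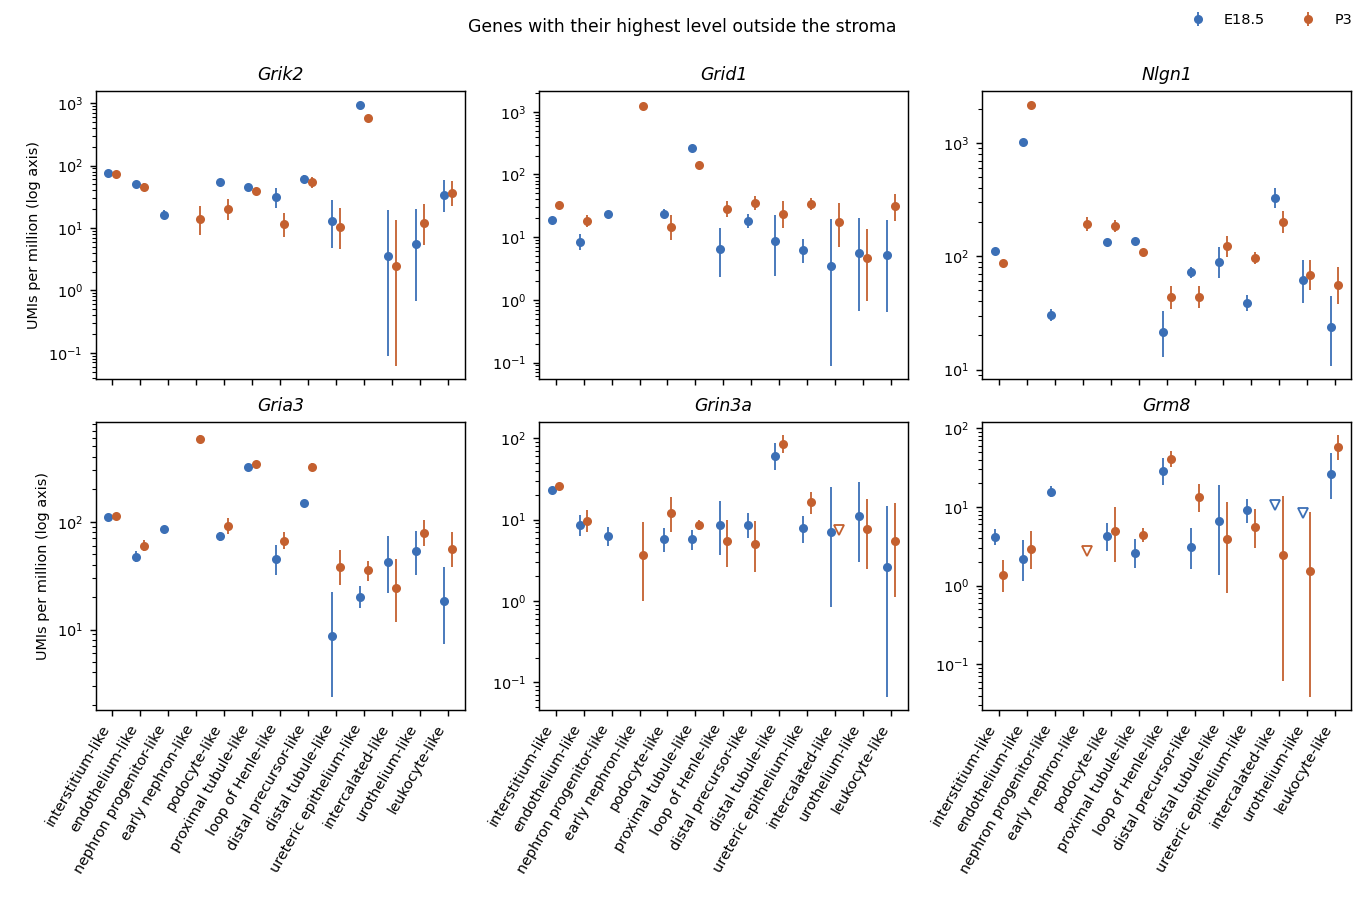
Levels of Grik2, Grid1, Nlgn1, Gria3, Grin3a and Grm8 (CPM, log axis) in named classes of nuclei at E18.5 (blue) and P3 (orange). Bars are 95% Poisson intervals of the counts, open triangles mark a class with no UMI at the level of 3 counts, and Grik2 stands out in ureteric epithelium-like nuclei at 937 and 575, Nlgn1 in endothelium-like nuclei at 1019 and 2169, and Grin3a in distal tubule-like nuclei at 61.1 and 85.7.

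The second comparison asked how the genes vary among stromal zones. The interstitium-like nuclei were clustered again without the 29 genes. At each age 5 zones were named from their markers, nephrogenic zone-like (1222 and 65 nuclei), cortical-like (1427 and 755), medullary-like (1201 and 384), papillary-like (364 and 216) and mural-like (184 and 56). Of 16 genes with at least 100 UMIs in these nuclei, 13 differed at least 2-fold between the highest and the lowest zone at E18.5, beside 33.4% of 12109 genes, and 16 of 16 did at P3, beside 55.7% of 11107 genes. The sets differ in that Grin2a had enough UMIs only at E18.5 and Nrxn2 only at P3. Some P3 differences rest on few UMIs in the lowest zone, and the intervals of Nlgn2 (2.07, 0.9304 to 5.72) and Grin2d (3.32, 0.553 to 135) include 1. At P3 clusters of 747, 542 and 322 nuclei stayed without a zone name, and the nephrogenic and mural zones were small.

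**Figure D3:**
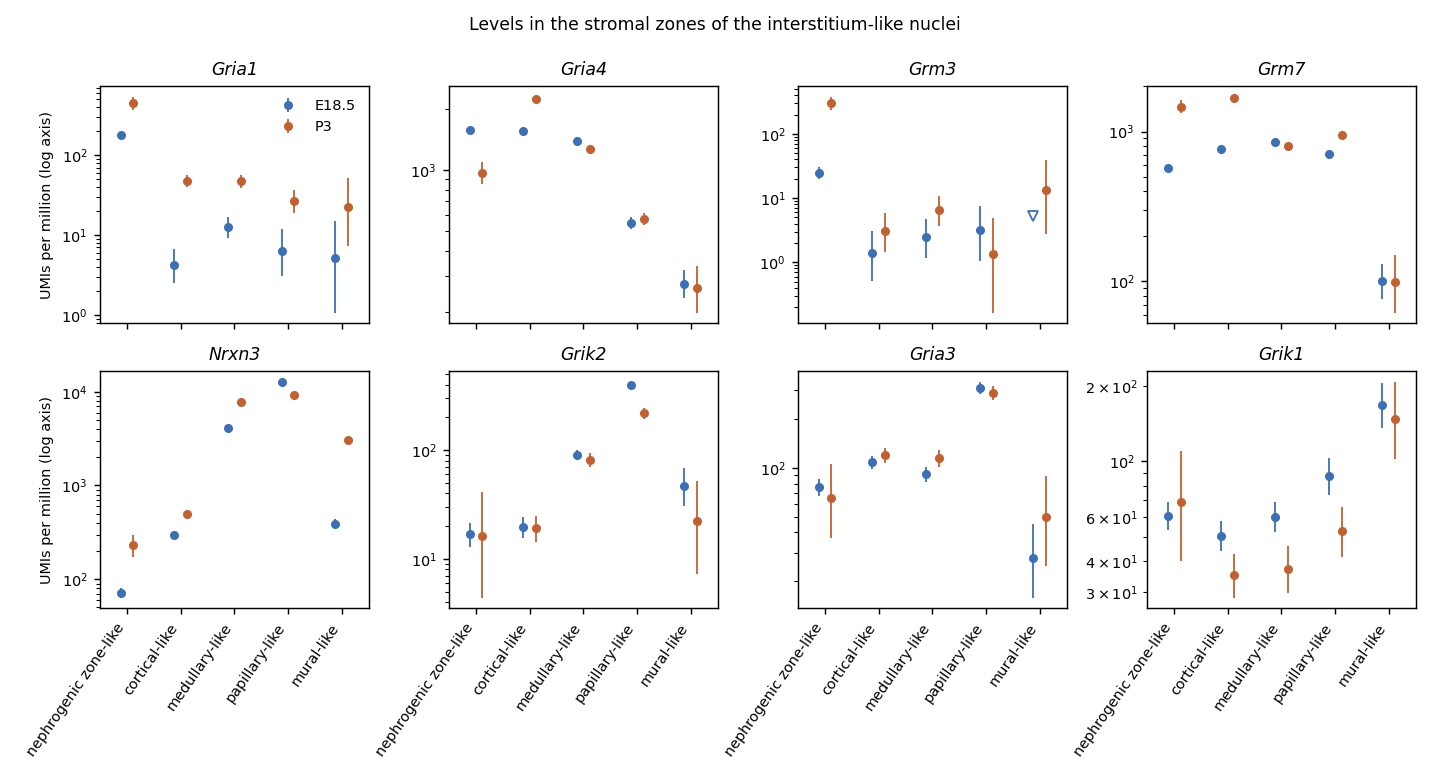
Levels of 8 genes (CPM, log axis) in the 5 stromal zones at E18.5 (blue) and P3 (orange), with 95% Poisson intervals and an open triangle for no UMI, placed at the level of 3 counts. Gria1 and Grm3 are highest in the nephrogenic zone, Nrxn3, Grik2 and Gria3 in the papilla, Grik1 in mural nuclei, and Gria4 and Grm7 are lowest in mural nuclei.

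Nrxn3 differed widely between zones. At E18.5 it was 72.0 CPM in the nephrogenic zone, 297 in the cortical, 388 in the mural, 4121 in the medullary and 12631 in the papillary zone, which alone held 50.6% of stromal Nrxn3 UMIs in 7.07% of the nuclei. The papillary level was 175 times (155 to 198) the nephrogenic level. At P3 the values ran from 230.5 in the nephrogenic zone and 499 in the cortical zone to 3060 in mural, 7686 in medullary and 9322 in papillary nuclei, a ratio of 40.4 (31.2 to 53.4). The mural level at P3 came from 23 nuclei led by Actg2 and Myh11 (smooth muscle genes), with 6882, whereas the 33 nuclei with raised Ren1 had 196.

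Grik2 and Gria3 also peaked in the papilla. Grik2 was 395 CPM there at E18.5 and 218 at P3, 4.36 times (3.80 to 5.00) and 2.69 times (2.24 to 3.24) the medullary level, and it was 16.9 and 16.2 in the nephrogenic zone. Gria3 was 310 and 289 in the papillary zone, 2.88 times (2.53 to 3.27) and 2.41 times (2.08 to 2.78) the cortical level. Without called doublets no medullary zone was named at P3 and the papillary-like class held 308 nuclei. Of the 216 papillary-like nuclei of the main setting, 205 were then left and 92 stayed interstitium-like. Most of the 308 nuclei were therefore others, and their levels do not compare the same population. In those 308 nuclei Gria3 was 139, beside 114 in cortical nuclei, and Grik2 was 94.9, below the 106 of an unnamed cluster of 595 nuclei. Grik4 was lowest in the cortical zone at both ages, at 12.0 and 23.2, and 85.3 and 114 in the papillary zone.

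Gria4 ran the other way. At E18.5 the nephrogenic, cortical and medullary zones had 1571, 1551 and 1399 CPM, the papillary zone 547 and the mural zone 274. At P3 the cortical zone had 2251, the medullary 1278, the nephrogenic 970, the papillary 574 and the mural 261, while the unnamed clusters of 322, 542 and 747 nuclei had 2461, 2443 and 2423. Without called doublets the P3 nephrogenic level was 2227, near the cortical level of 2422, and the mural level was again the lowest at 241. Grm7 was likewise lowest in mural nuclei, at 101 and 98.8, and was 854 in the medullary zone at E18.5 and 1664 in the cortical zone at P3. Grik1, in contrast, was highest in mural nuclei, at 168 and 148, from 97 and 33 UMIs.

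Gria1 and Grm3 marked the nephrogenic zone. Gria1 was 181 CPM there at E18.5, which is 14.4 times (10.7 to 19.9) the medullary level of 12.5, and between 4.22 and 6.41 in the other 3 zones. Grm3 was 24.9 in the nephrogenic zone at E18.5 and at most 3.21 in the others. The nephrogenic zone-like class was made of different clusters at the 2 ages. At E18.5 it held 990 nuclei with Cadm1, Gdnf and Aox3 among the leading genes and 232 nuclei with Luzp2, Smoc2 and raised Foxd1, and at P3 only 65 nuclei of the latter kind, led by Luzp2 and Col6a5. A P3 cluster of 542 nuclei led by Aox3, with Gria1 and Cadm1 also leading, stayed unnamed because only 2 zone markers, Fibin and Aldh1a2, were raised. Between the Luzp2 clusters, Grm3 was 47.6 at E18.5 and 303 at P3, Gria1 253 and 449, Grm7 989 and 1468, and Nlgn1 248 and 477. Between the Aox3 clusters, Gria1 was 164 and 535, Gria4 1583 and 2443, Nrxn3 70.9 and 175, and Grm3 19.5 and 7.70. With doublets left out, the 2 kinds fell into 1 class of 577 nuclei at P3, where Grm3 was 45.2 and Gria1 501.

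Markers of neural cells were measured beside these levels. The 11 neuron and chromaffin genes of the marker list were not left out of the clustering, and the 18 neuron-like nuclei were named from them. They summed to 3447 CPM in those nuclei, but to 25.7 in interstitium-like nuclei at E18.5 and 10.4 at P3. They were higher in some groups named above, at 113 (28 UMIs) in the nephrogenic zone at P3, where Grm3, Gria1 and Nlgn1 were high, at 169 in nephron progenitor-like nuclei at E18.5 and at 96.6 in the P3 cluster led by Eya1, where Grik4 and Grm7 were high. The part of neural transcripts in those levels was not tested. In the papillary zone, where Nrxn3 was highest, they summed to 20.5 and 6.81, with 5 and 3 of the genes detected, and Th, Tubb3, Snap25 and Hand2 were among those at 0 at both ages. The 9 glial genes of the list summed to 22.4 and 13.6 there, and Cdh19 and Foxd3 were among those at 0 at both ages. A cluster of 16 nuclei among the stroma at E18.5, with Cdh19 among its leading genes and 68.8% called doublets, had 2421 CPM of the glial genes, 599.5 of Grik2, 346 of Nlgn1 and 23.1 of Nrxn3.

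The third comparison set the P3 library against the E18.5 library within interstitium-like nuclei. Of 23 genes with at least 50 UMIs over both ages, 3 were at least 2-fold higher at P3, beside 2.64% of all 15242 genes, and 2 were at least 2-fold lower, beside 13.6%. The median ratio of all genes was 0.882, and it followed gene span, from 0.635 for genes under 10 kb to 1.32 for genes over 300 kb. The 23 genes had a median ratio of 1.16, and the 12 of them over 300 kb had 1.24. Levels of long genes were thus higher at P3 in general, and the Cell Ranger release differs between the matrices. Whether reads in introns were counted is not given in the sources used here, and the part of this in the ratios was not tested.

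**Figure D4:**
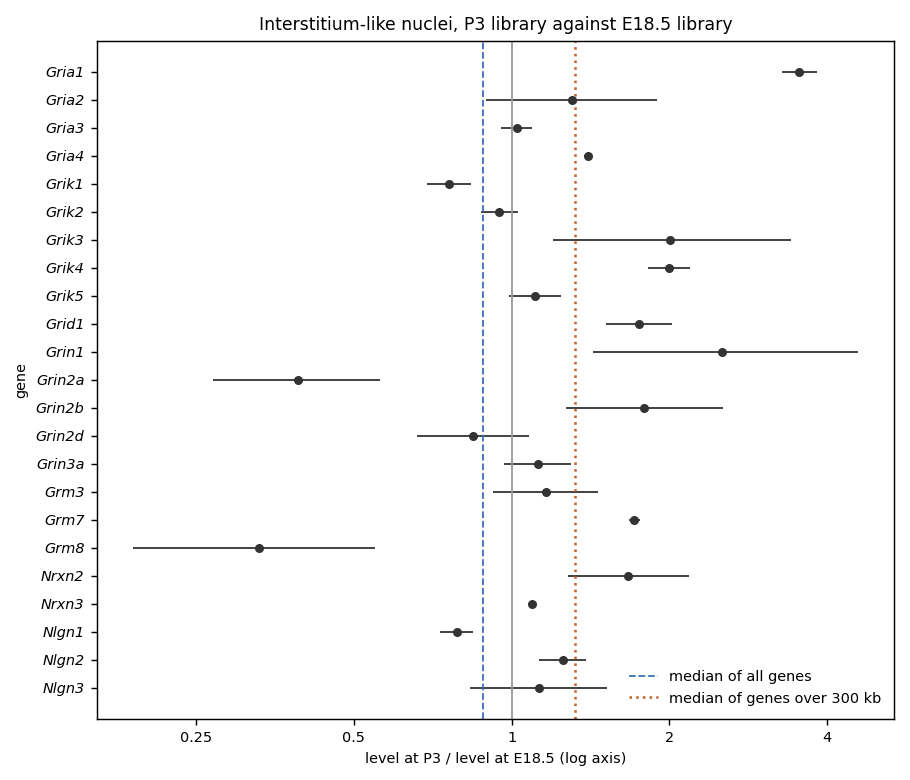
Ratio of the P3 level to the E18.5 level in interstitium-like nuclei for the 23 genes with at least 50 UMIs over both ages (log axis), with 95% conditional binomial intervals. The dashed line is the median of all genes (0.882), the dotted line that of genes over 300 kb (1.32), Gria1 lies farthest to the right at 3.54 and Grm8 farthest to the left at 0.330.

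Gria1 had 847 UMIs (51.1 CPM) at E18.5 and 2634 UMIs (181 CPM) at P3, a ratio of 3.54 (3.28 to 3.83), and the ratio was between 3.46 and 3.97 under the alternatives. By zone the ratio was 2.48 (2.01 to 3.04) in the nephrogenic, 3.76 (2.64 to 5.45) in the medullary and 11.3 (6.91 to 19.7) in the cortical zone. In the papillary zone (10 and 39 UMIs) it was 4.14 (2.03 to 9.30), and in the mural zone it rested on 3 and 5 UMIs with an interval that includes 1 (0.840 to 27.8). Gria1 was also higher at P3 in endothelium-like (10.6 and 47.8), proximal tubule-like (3.31 and 24.8) and ureteric epithelium-like nuclei (0.806 and 13.9). In P3 clusters of these classes with few called doublets the level was lower, 17.1 in 741 endothelium-like nuclei and 6.32 in 983 proximal tubule-like nuclei. The part of free RNA in these levels was not tested. Grin1 (19 and 42 UMIs, ratio 2.52, 1.43 to 4.58) and Grik3 (25 and 44 UMIs, 2.004, 1.20 to 3.42) were the other 2, and Grik4 lay just below the limit (43.2 and 86.3 CPM, 1.82 to 2.19). Grik3 was below 2-fold under 4 of the 5 other settings.

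Grm7 was 1.71 times (1.67 to 1.76) and Gria4 1.398 times (1.37 to 1.42) the E18.5 level. By zone, Grm7 was 2.17 times the E18.5 level in cortical nuclei and 0.937 times in medullary nuclei, and Gria4 1.45 and 0.913 times. In the nephrogenic zone, made of different clusters at each age, Grm7 was 2.57 and Gria4 0.618 times. Nrxn3 had a ratio of 1.10 over the class, but 7.88 in the mural, 3.20 in the nephrogenic, 1.87 in the medullary, 1.68 in the cortical and 0.738 in the papillary zone. The mural zone, too, was made of different clusters. At E18.5, 17 of its 184 nuclei were of the Myh11 and Actg2 cluster and 134 were led by Dkk2. At P3, 23 of its 56 nuclei were of the Actg2 and Myh11 cluster, and 20 nuclei led by Dkk2 stayed unnamed. The value of 7.88 is therefore not a comparison of the same population. For Nrxn3 the ratio of the class was below 1 under 3 alternatives (0.953 without called doublets, 0.742 with 20 nearest neighbors and 0.776 with all deposited barcodes). In these 3 settings only 92, 8 and 29 of the 216 papillary-like nuclei of P3 stayed in the interstitium-like class, while at E18.5 at least 345 of 364 did, so the classes compared differed in their share of papillary nuclei. The part of this in the ratios was not tested. Lower at P3 were Grm8 (69 and 20 UMIs, 0.330, 0.190 to 0.549) and Grin2a (122 and 42 UMIs, 0.392, 0.269 to 0.561), of which Grin2a was at least 2-fold lower with 20 nearest neighbors (0.340) but between 0.505 and 0.934 under the other settings that changed the nuclei or the mean. Grik1 was 0.759 and Nlgn1 0.786 times the E18.5 level.

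Outside the stroma, Nlgn1 in endothelium-like nuclei had a ratio of 2.13 (2.06 to 2.20), beside a median of 1.35 for genes over 300 kb in that class. Grik2 in ureteric epithelium-like nuclei had 0.613 (0.576 to 0.652), beside 1.31. Nrxn3 in loop of Henle-like nuclei differed little, at 0.967 (0.913 to 1.02), and in distal tubule-like nuclei it was 0.368. Grin3a in distal tubule-like nuclei was 1.403 (0.888 to 2.27).

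Proteins that work with these receptors were measured as well, in 5 lists of 70 genes. Of 12 AMPA receptor auxiliary genes, 8 had at least 100 UMIs at E18.5 and 7 at P3. Cacng7, a transmembrane regulator of AMPA receptors, was 36.8 and 34.4 CPM in interstitium-like nuclei, with nephron progenitor-like nuclei at 33.8 at E18.5, and Cacng4 did not exceed 18.2 in a ranked class. Shisa9 was highest in endothelium-like nuclei (19.4 and 44.0), and among the zones it stood at 32.1 in the nephrogenic zone at E18.5 and 230.5 (57 UMIs) at P3, and Shisa6 was a podocyte-like gene with 31.4 and 23.1. Of the kainate auxiliary pair, Neto2 was highest in interstitium-like nuclei with 202 and 171, and in the papillary zone, where Grik2 was highest, it was 479 at E18.5 and 101 at P3, and Neto1 had only 44 and 12 UMIs.

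Among 18 scaffold genes, Grip1, which binds AMPA receptor tails, led with 59055 and 64136 UMIs. It was highest in ureteric epithelium-like nuclei (2079 and 2145 CPM). Dlg1 was broad, with its maximum in urothelium-like nuclei (679 and 857), and Shank2 was highest in loop of Henle-like nuclei (488 and 1018). Shank3 was an endothelial gene like Nlgn1, with 339 and 462, at 8.94 and 13.7 times the next class, and Homer2 was urothelial with 170 and 307.

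Among 28 ligands of neurexins and of the delta receptor and their partners, the latrophilin Adgrl3 led, with 1262 and 2117 CPM in interstitium-like nuclei, 2.93 and 3.98 times the next class. Adgrl2 was highest in endothelium-like nuclei with 503 and 673. Cask, which binds the neurexin tail inside the cell, was 453 and 572 in interstitium-like nuclei, close to nephron progenitor-like nuclei (456) at E18.5. Lrrtm3 was highest in intercalated-like nuclei at E18.5 (94.9), and among stromal zones in mural nuclei (175 and 297). The cerebellin genes, which bridge neurexins and delta receptors, were sparse, with 2 and 0 UMIs of Cbln1 and 178 and 53 of Cbln4. Of 10 genes of glutamate supply and uptake, Glud1 (glutamate dehydrogenase) was broad, and the transporter Slc1a1 was highest in proximal tubule-like nuclei at 85.3 and 221. The vesicular transporter Slc17a8, named after its values were seen, was 191 and 122 in the papillary zone, whereas Slc17a7 had 18 and 6 UMIs and Slc17a6 0 and 1.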

How the data were processed

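Nuclei of mouse kidneys were profiled with Chromium 3′ single-nucleus libraries, 1 at E18.5 and 1 at P3. The authors deposited filtered matrices of UMI counts per gene and barcode, made with Cell Ranger on mm10. The header of the E18.5 matrix gives release 7.0.0, that of the P3 matrix 5.0.1, and the submitters' processing notes name 5.0.1. Whether intronic reads were counted is not given in the sources used here.

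Of 21600 and 12216 barcodes, 21270 and 11765 were kept (limits of 3 median absolute deviations on log UMIs and log genes, and on the mitochondrial share with a margin of at least 0.5 points). Scrublet, run through scanpy 1.11.5 (Python 3.11.15) at an expected rate of 0.1, called 3762 and 2086 doublets, which were kept. Each library was clustered by itself in R 4.3.3 (scran 1.30.0, bluster 1.12.0, igraph 2.1.4) on 2000 variable genes and 50 components with 10 nearest neighbors and Walktrap, leaving out the 29 genes and 70 partner genes (99 in all). A cluster was named when at least 3 markers of a class were raised 2-fold and its leading genes did not hold more markers of another class. It stayed unnamed if another class with at least 3 raised markers scored above 0.8 of the best score. It also stayed unnamed if its UMIs were low and no marker of the class led, or if hemoglobin genes were raised without Alas2. A rule on leading adipocyte genes was set after the clusters were seen, and it left a P3 cluster of 53 nuclei unnamed. Classes of at least 50 nuclei were ranked. Gene spans came from GENCODE M21, in which 32158 gene IDs matched. Nuclei were thinned to 1000 UMIs for shares, leaving out shallower nuclei.

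With 1 library per age no test was run. UMIs were summed per class, with 95% Poisson and conditional binomial intervals. Genes needed 100 UMIs in a library, or 50 UMIs over both ages for age ratios, and a difference counted from 2-fold. On simulated Poisson counts of the age comparison (15242 genes), the intervals covered the true ratio of 191 of 200 changed genes, and 105 of 105 genes changed 4-fold were past the 2-fold limit. The intervals are built for such counts, so this checks the calculation only. Variation between nuclei, clusters and libraries was not simulated, and how the intervals hold in these data was not tested. Alternatives were no called doublets, Leiden clusters, 20 nearest neighbors, all deposited barcodes, the mean over nuclei and a limit of 20 UMIs. All 29 genes were named. Of the partner genes, the 3 with the most UMIs per list and those at least 5 times above the next class were to be named, and others that are named were chosen after their values were seen. Some genes of these lists are not reported here. The 29 genes and all lists were chosen with earlier results of these data known.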

Additional observations from a re-analysis of the deposited data

How the results depend on the processing

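In all 6 settings the leading class was the same at both ages for Gria1, Gria4, Grm7 and Nlgn2 (interstitium-like), Grik2 (ureteric epithelium-like), Nlgn1 (endothelium-like) and Grm4 (proximal tubule-like). The Grm4 lead over the next class lay inside the counting interval at E18.5 (1.14, 0.735 to 1.79) and at P3 (1.17, 0.485 to 3.66). Interstitium-like nuclei led for 8 genes at P3, beside 7.68% of all genes, but for 4 with 20 nearest neighbors and 5 with all deposited barcodes. In these settings papillary stroma was named nephron progenitor-like, and their shares of all genes are given with the first comparison. The genes at least 2-fold lower at P3 were 2, and 1 without called doublets, 1 with Leiden clusters, 1 with all deposited barcodes and 1 with the mean over nuclei, and the genes at least 2-fold higher were 3, and 5 with the mean over nuclei. Among orders of classes larger than the counting interval, those reversed were of Grik1 at E18.5 without called doublets (0.918), Nrxn3 with the mean over nuclei at E18.5 (0.945) and with all deposited barcodes at P3 (0.908), Grid1 at P3 with 20 nearest neighbors (0.235) and Grin3a at P3 with Leiden clusters (0.931). The Nrxn3 age ratio was reversed without called doublets (0.953), with 20 nearest neighbors (0.742) and with all deposited barcodes (0.776), where fewer papillary nuclei of P3 were in the class. The cause of these changes was not tested. Of the ratios of single genes, 55 of 93 stayed within their counting interval without called doublets, 52 of 81 with Leiden clusters, 63 of 89 with 20 nearest neighbors, 70 of 91 with all deposited barcodes and 81 of 98 with the mean over nuclei. Where a zone or class was not named under an alternative, no value could be given. No paired analysis was possible because there was 1 library per age, and no replicate could be left out. Intervals cover counting error only, and genes with under 100 UMIs cannot be ranked across classes at this depth.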
